A study of Mus musculus with 12 samples.

Results

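T cell receptor gene segments are the V, J and constant pieces from which the receptor genes of T cells are assembled, and their RNA was read here in group 2 innate lymphoid cells (ILC2s), lymphocytes that make type 2 cytokines without an antigen receptor. The segments were chosen by name, as every gene symbol of the 4 receptor loci (Tra, alpha; Trb, beta; Trg, gamma; Trd, delta) that names a V, J or constant segment. The annotation held 264 of them, and 223 were among the 29621 genes to which the deposited transcripts were summed. These were 139 V segments, 77 J segments and 7 constant segments. The other 41 segments, the delta constant segment Trdc and the gamma J segments Trgj1 and Trgj2 among them, were not analysed here.

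The ILC2s were sorted from skin-draining lymph nodes of mixed bone marrow chimeras. CD45.1 congenic recipients had received 950 cGy and then equal parts of 2 marrows of strain C57BL6, CD45.2 Rag1-/- and CD90.1 WT, so that both genotypes developed in irradiated hosts that also held WT cells. All mice were given IL-33, the cytokine that expands ILC2s, at 30 ng into each cheek and 240 ng into the peritoneum daily for 7 days. The 4 groups of 3 libraries were Rag1 knockout at 20 weeks after transplant, WT at 20 weeks, Rag1 knockout at 8 weeks and WT at 8 weeks. The labels do not say that the replicates of a group were separate animals, and the p-values below measure only how far these samples spread, which may be technical. The 2 times cannot be told apart from any batch they were processed in. Genotype cannot be told apart from the CD90.1 marker of the WT marrow and the strain sequence linked to it.

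In developing T cells the recombinase made of RAG1 and RAG2 cuts a V and a J segment (with a D segment between them in the beta and delta loci) and joins them, and splicing links the joined exon to a constant segment. Before they are joined, segments in open chromatin can also be transcribed from their own promoters or from promoters in front of a J cluster, which gives germline (sterile) transcripts. A read over a segment therefore does not by itself show that a receptor gene was assembled. The question of the study is what Rag1 in the cells' development changes in their RNA, and the receptor loci are the DNA on which RAG1 is known to act.

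Summed estimated reads were 11433625 to 32529806 per library, of which the segments held 0.0697% to 0.149%. The sort was checked against 12 ILC2 genes, Gata3, Il1rl1, Klrg1 and Il7r among them, whose summed level was 3636 to 4478 CPM (reads scaled to library size with TMM factors) in every library. Klrg1 alone gave 1037 to 1767 CPM of this sum, while the lowest of the list were Il13 with 7.17 to 36.3 CPM and Areg with 0.884 to 5.51 CPM. Of 12 T cell genes none was at 0 in all libraries, and their sum was 197 to 226 CPM in knockout-labelled cells and 221 to 239 CPM in WT cells at 20 weeks, and 201 to 273 CPM in knockout-labelled cells and 241 to 306 CPM in WT cells at 8 weeks. The summed levels of other lists were 80.9 to 248 CPM for B cell genes, 34.8 to 231 CPM for NK cell genes, 8.70 to 24.7 CPM for myeloid genes and 1231 to 1748 CPM for 3 genes of NK T and MAIT cells. Cxcr6 alone gave 1228 to 1746 CPM of the last sum, and Zbtb16 and Slamf1 did not exceed 3.39 CPM. Of the T cell genes Lef1 had 74.3 to 175 CPM, Ubash3a 61.6 to 95.3 CPM and Cd3g 24.2 to 66.0 CPM, and the other 9 (Cd3d, Cd3e, Cd4, Cd8a, Cd8b1, Cd5, Cd6, Themis and Foxp3) did not exceed 6.59 CPM in any library. Rag1 went against its label, with 0 to 0.97 CPM in the 6 knockout-labelled libraries and 0 CPM in the 6 WT libraries (where along the gene these reads lie is not given by the per-transcript values), so that genotype is called knockout-labelled throughout. WT replicate 2 and knockout-labelled replicate 3 of 8 weeks stood apart from the other libraries, and results that change without them are given both ways.

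Among the segments analysed, the beta locus gave most of the RNA, then the gamma locus, then a single delta V segment, and the alpha locus gave almost none. The delta constant segment Trdc was not among them, so the delta share leaves it out. Beta segments took 51.9% to 70.4% of the segment reads of a library, gamma segments 24.02% to 43.9%, delta segments 3.91% to 7.96% and alpha segments 0.177% to 0.408%. Constant segments took 84.7% to 92.2% of these reads, V segments 4.74% to 10.03% and J segments 3.14% to 5.65%. Trbc2, Trbc1 and Trgc4 together held 71.4% to 82.5% of them, so 3 of 223 segments carried most of the signal in every library.

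To compare segments of different length, the deposited TPM, which scale reads by length and depth, were used. Within a library, TPM were proportional to the reads divided by the segment's length minus 19, the number of 20-base words in it, to within 0.0256% (coefficient of variation over segments with at least 10 reads). J segments are only 27 to 72 bases long in the files, so this divisor raises them more than a division by length would, and both are given where a J is compared with a constant segment. On the TPM scale Trbc2 averaged 1001 over the 12 libraries and ranked 151 of 29621 genes, Trbc1 averaged 872 and ranked 177, Trgc4 averaged 532 and ranked 309, and Trdv4 averaged 312 and ranked 532. At the other end, 101 of the 223 segments had 0 reads in all 12 libraries.

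**Figure D1:**
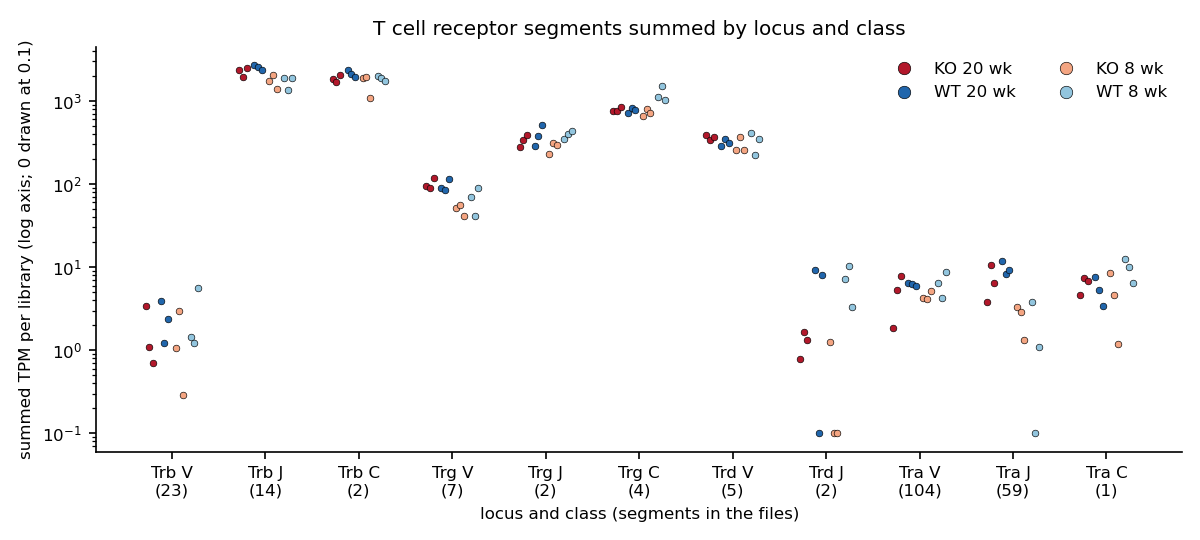
Summed TPM of the V, J and constant (C) segments of each locus, on a log axis, with 1 point per library and the 4 groups side by side (knockout-labelled and WT at 20 weeks, then at 8 weeks). The beta V segments sit between 0.287 and 5.61 TPM while the beta constant segments sit between 1094 and 2374 TPM; all alpha classes are under 13 TPM.

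In the beta locus (chromosome 6, GRCm38) the constant and J segments were abundant and the V segments analysed were close to absent. Trbc1 and Trbc2 encode the constant part of the receptor beta chain, and each lies behind its own cluster of 7 J segments. Trbc2 (chr6:41546730-41548352, plus strand) had 302, 313 and 431 CPM in knockout-labelled cells and 511, 409 and 456 CPM in WT cells at 20 weeks, and 443, 413 and 238 CPM in knockout-labelled cells and 433, 361 and 446 CPM in WT cells at 8 weeks. Trbc1 (chr6:41538218-41539881, plus strand) had 319.6, 279.6 and 333 CPM in knockout-labelled cells and 357, 329 and 309 CPM in WT cells at 20 weeks, and 377, 411 and 227 CPM in knockout-labelled cells and 377, 488 and 288 CPM in WT cells at 8 weeks. For both, knockout-labelled replicate 3 of 8 weeks was the lowest library, and the groups overlapped. The first 60 bases of both, at chr6:41538218-41538277 in Trbc1 and chr6:41546730-41546789 in Trbc2, are the same, and 69.8% of the 20-base words of Trbc1 are also in Trbc2, so the division of reads between the pair rests on the counting model and their order is uncertain. Their shared start is shown because it is the stretch to which every joined beta chain is spliced (GENCODE M21, GRCm38).
Trbc1 and Trbc2: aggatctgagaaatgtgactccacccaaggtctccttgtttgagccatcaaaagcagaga

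The J segments of the beta locus had levels per length near those of the constant segments. Summed over 14 J segments the TPM were 0.734 to 1.28 times those of the 2 constant segments, and the reads per base 0.467 to 0.814 times. Within each J cluster the first segment led. Trbj1-1 (chr6:41533864-41533911) had 871, 652 and 741 TPM in knockout-labelled cells and 785, 816 and 688 TPM in WT cells at 20 weeks, and 589, 663 and 495 TPM in knockout-labelled cells and 695, 290.2 and 564 TPM in WT cells at 8 weeks. Trbj2-1 (chr6:41542754-41542803) had 326, 320.0 and 539 TPM in knockout-labelled cells and 580.3, 493 and 506 TPM in WT cells at 20 weeks, and 433, 415 and 231 TPM in knockout-labelled cells and 368, 396 and 452 TPM in WT cells at 8 weeks. Trbj1-1 was the highest beta J segment in 11 of 12 libraries, the exception being WT replicate 2 of 8 weeks, where Trbj2-1 was higher. The first segment was the highest of its own cluster in all 12 libraries: Trbj1-1 took 35.0% to 52.6% of the reads of its cluster and Trbj2-1 took 55.8% to 72.1%.

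The segments are given as annotated in GENCODE M21 (GRCm38, plus strand), with the codons of the Phe-Gly-X-Gly motif, the conserved turn of a J region, in capitals. The motif was searched as TTTGGNNNNGGN and TTCGGNNNNGGN on the coding strand only; 11 of 14 beta J segments and 55 of 77 J segments of all loci (71.4%) hold it, and no overlap with another motif was looked for. The first and second segments of each cluster are shown to set the leading ones beside their neighbours. Trbj1-7 and Trbj2-6 are shown because they lack these letters and were still detected. Trbj1-6, with a median of 101.6 TPM, lacks them as well and is not shown. The annotated span of Trbj1-7 is 1 base longer than its 45-base transcript.
Trbj1-1, chr6:41533864-41533911: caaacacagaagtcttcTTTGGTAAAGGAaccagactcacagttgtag
Trbj1-2, chr6:41534001-41534048: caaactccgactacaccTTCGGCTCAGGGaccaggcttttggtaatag
Trbj1-7, chr6:41535642-41535687: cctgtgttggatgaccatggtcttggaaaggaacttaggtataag
Trbj2-1, chr6:41542754-41542803: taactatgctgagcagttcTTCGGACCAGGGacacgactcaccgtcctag
Trbj2-2, chr6:41542957-41543007: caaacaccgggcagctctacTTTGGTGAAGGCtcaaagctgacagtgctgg
Trbj2-6, chr6:41543598-41543645: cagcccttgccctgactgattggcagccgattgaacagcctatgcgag
Trbj2-7, chr6:41543810-41543856: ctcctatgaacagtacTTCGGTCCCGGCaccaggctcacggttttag

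The first segment of each cluster stood far above most of the others, and past it (past Trbj1-2 in the first cluster) the levels followed no order of distance. Trbj1-2, 137 bp downstream of Trbj1-1, had a median of 352 TPM over the 12 libraries (173 to 466 TPM), against a median of 676 TPM for Trbj1-1. Trbj1-3 to Trbj1-7 had medians of 60.6 to 101.6 TPM, and the highest of these was Trbj1-6, next to last in the cluster. In the second cluster Trbj2-2, 203 bp downstream of Trbj2-1, had a median of 32.8 TPM against 424 TPM for Trbj2-1, while Trbj2-3 had 67.9 TPM and the last segment, Trbj2-7, had 73.7 TPM, the second highest of the cluster. The annotated pseudogene Trbj2-6 had a median of 22.4 TPM (13.8 to 34.9 TPM), above the 13.6 TPM of its functional neighbour Trbj2-5. All 29 words of Trbj1-1 and all 31 of Trbj2-1 are found in no other transcript of the files, so their reads are not shared with another segment by the model.

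**Figure D2:**
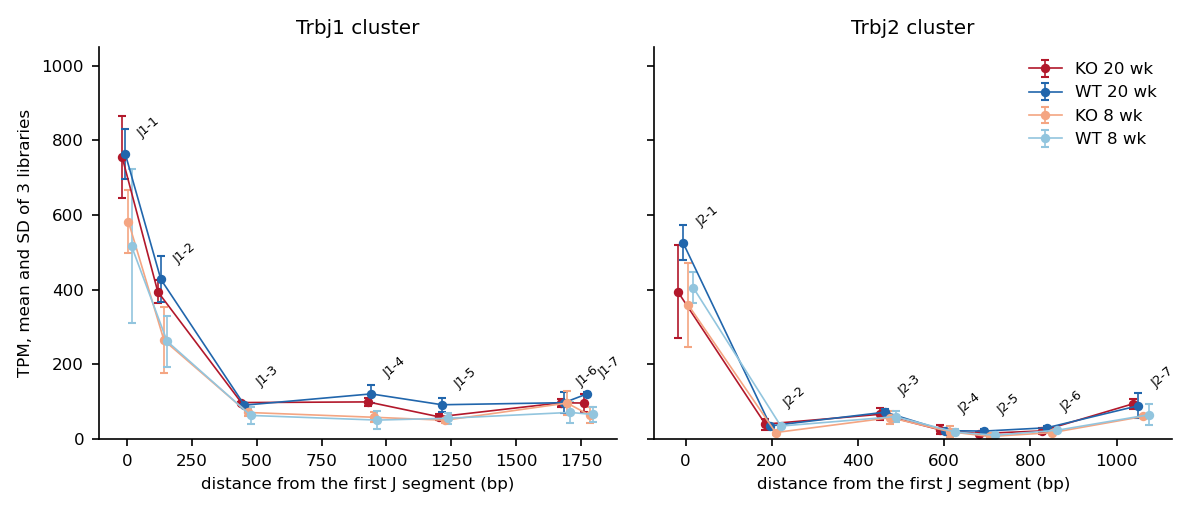
TPM of the 14 beta J segments against their distance (bp) from the first segment of the cluster, as mean and SD of 3 libraries in each of the 4 groups (points of a group are shifted slightly sideways). In both clusters the first segment stands highest in every group, and Trbj1-2 is the only other one whose group means exceed 200 TPM.

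Of 35 annotated beta V segments 23 were analysed. These 23, each of which would supply the first part of a joined beta chain, had only 0.969 to 28.9 reads per library in all. Per length the constant segments exceeded them by 312-fold to 3812-fold in a library. Trbv13-2, the V segment with the highest mean TPM, had 16.6, 0 and 0.969 reads in knockout-labelled cells and 4.38, 1.44 and 0.938 reads in WT cells at 20 weeks, and 7.75, 4.52 and 0 reads in knockout-labelled cells and 1.94, 2.44 and 0 reads in WT cells at 8 weeks. Trbv31, the only beta V segment that lies behind the constant segments, had at most 6.75 reads, and Trbv13-3 had 13.5 reads in WT replicate 3 of 8 weeks and at most 1.30 in any other library. No V segment led in more than 3 libraries, and 13 of the 23 had 0 reads in all of them. A count of 0 allows up to 3 reads in that library, counting error only.

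The gamma locus (chromosome 13, GRCm38) encodes one chain of the gamma delta receptor, and its V, J and constant segments lie in small sets of their own. The leading segments of all 3 classes among those analysed, Trgv1, Trgj4 and Trgc4, are neighbours on the plus strand, with 1697 bp between Trgv1 and Trgj4 and 2345 bp between Trgj4 and Trgc4. Of the 4 annotated gamma J segments only 2, Trgj3 and Trgj4, were analysed. Trgc4 (chr13:19344558-19352756) had 203, 213 and 243 CPM in knockout-labelled cells and 219, 215 and 248 CPM in WT cells at 20 weeks, and 228, 228 and 206 CPM in knockout-labelled cells and 254, 266 and 272 CPM in WT cells at 8 weeks. It led the gamma constant segments in 11 of 12 libraries and held 36.8% to 76.6% of their reads. Trgc1 (chr13:19214103-19217024) had 74.1, 74.4 and 93.0 CPM in knockout-labelled cells and 63.2, 89.7 and 83.9 CPM in WT cells at 20 weeks, and 81.3, 127 and 120.4 CPM in knockout-labelled cells and 223, 452 and 183 CPM in WT cells at 8 weeks. Trgc1 exceeded Trgc4 only in WT replicate 2 of 8 weeks, and its 3 WT libraries of 8 weeks were above all 9 others.

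Trgc2 (chr13:19304649-19307551, minus strand) had 1.34, 1.76 and 2.06 CPM in knockout-labelled cells and 3.72, 2.08 and 3.51 CPM in WT cells at 20 weeks, and 2.47, 1.98 and 1.45 CPM in knockout-labelled cells and 8.55, 4.51 and 3.92 CPM in WT cells at 8 weeks. Trgc3 had at most 0.902 CPM and 9.90 reads in any library. Trgc1, Trgc2 and Trgc3 are near copies: 51.3% of the 20-base words of Trgc1 are in Trgc2, and 36.2% are found in no other transcript, so reads can be moved among these 3 by the model. These words are of GENCODE M21 sequences, in which Trgc1 has 905 words and Trgc4 has 966. That is more than fit their 518 and 572 bases in the files, and the shares within the shorter sequences were not counted. Trgc4 stands apart, with 96.9% of its words in no other transcript. Their first 60 bases (GENCODE M21, GRCm38) show this, with capitals marking bases that differ from Trgc1 at the same position: 1 in Trgc2 and 10 in Trgc4.
Trgc1, chr13:19214103-19214162: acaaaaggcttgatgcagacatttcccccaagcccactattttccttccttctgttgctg
Trgc2, chr13:19307492-19307551, minus strand: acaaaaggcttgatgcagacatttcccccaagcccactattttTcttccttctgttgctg
Trgc4, chr13:19344558-19344617: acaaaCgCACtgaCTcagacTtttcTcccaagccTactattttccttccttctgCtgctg

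Of the 2 gamma J segments analysed, which leave out Trgj1 and Trgj2, only Trgj4 carried reads in number. Trgj4 (chr13:19342152-19342212) had 274, 336 and 393 TPM in knockout-labelled cells and 277, 379.8 and 509 TPM in WT cells at 20 weeks, and 225, 307 and 290.5 TPM in knockout-labelled cells and 340.0, 399 and 426 TPM in WT cells at 8 weeks. Trgj3 had at most 8.29 reads in a library. Neither gamma J segment holds the motif letters searched above, and all 42 words of Trgj4 are in no other transcript. Its sequence is set beside that of Trgj3 because the 2 differ so much in level and by 1 base in length.
Trgj4, chr13:19342152-19342212: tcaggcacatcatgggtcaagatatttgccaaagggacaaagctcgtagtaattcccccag
Trgj3, chr13:19257117-19257176: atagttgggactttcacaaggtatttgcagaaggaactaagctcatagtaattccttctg

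Gamma V segments were present at levels that the beta V segments did not approach, and still 6.82-fold to 37.4-fold under the gamma constant segments per length. Trgv1 (chr13:19339989-19340454, plus strand) had 31.2, 34.6 and 44.0 TPM in knockout-labelled cells and 38.7, 44.4 and 52.0 TPM in WT cells at 20 weeks, and 15.9, 13.7 and 17.1 TPM in knockout-labelled cells and 23.0, 8.94 and 34.7 TPM in WT cells at 8 weeks. All 6 libraries of 20 weeks except knockout-labelled replicates 1 and 2 exceeded every library of 8 weeks, and WT replicate 2 of 8 weeks was the lowest. Trgv1 led the gamma V segments in 10 of 12 libraries and took 21.4% to 53.1% of their reads. Trgv5 had 22.1, 23.2 and 32.8 TPM in knockout-labelled cells and 15.3, 15.6 and 23.8 TPM in WT cells at 20 weeks, and 13.4, 15.2 and 8.34 TPM in knockout-labelled cells and 15.0, 9.63 and 18.8 TPM in WT cells at 8 weeks. Trgv2 (minus strand), of which 33.1% of the words are shared with Trgv1, had 22.9, 16.4 and 21.3 TPM in knockout-labelled cells and 20.5, 9.43 and 19.3 TPM in WT cells at 20 weeks, and 7.84, 13.7 and 2.84 TPM in knockout-labelled cells and 16.5, 8.58 and 16.8 TPM in WT cells at 8 weeks. For both, knockout-labelled replicate 3 of 8 weeks was the lowest library. Trgv4 varied little, with 9.62 to 16.8 TPM over the 12 libraries, while Trgv6 and Trgv7 did not exceed 2.42 TPM.

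In the delta locus (inside the alpha locus on chromosome 14, GRCm38) 1 V segment held nearly all reads of the segments analysed, which do not include the constant segment Trdc. Trdv4 (chr14:54074905-54075515, plus strand) had 81.4, 75.4 and 88.1 CPM in knockout-labelled cells and 65.0, 75.8 and 76.3 CPM in WT cells at 20 weeks, and 70.1, 97.8 and 70.5 CPM in knockout-labelled cells and 106, 62.3 and 92.2 CPM in WT cells at 8 weeks. WT cells of 8 weeks held both the highest and the lowest library, and the groups overlapped. Trdv4 held 93.4% to 99.5% of the delta V reads and 67.2% to 83.0% of the reads of all 139 V segments; without it, V segments summed to 0.0179 to 0.0519 of the TPM of the constant segments, against 0.0792 to 0.184 with it. All 425 of the 20-base words of its GENCODE M21 sequence are found in no other transcript, but that sequence is longer than the 345 bases in the files. Trdv4 is the plus-strand V segment nearest to the delta J segments, with 47622 bp between it and Trdj1, against 161535 bp for Trdv2-2. The minus-strand Trdv5, at 25473 bp, lies nearer.

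Trdv2-2 had 3.23, 2.49 and 3.13 CPM in knockout-labelled cells and 3.62, 4.15 and 4.37 CPM in WT cells at 20 weeks, and 1.79, 3.57 and 0.404 CPM in knockout-labelled cells and 4.01, 4.41 and 1.90 CPM in WT cells at 8 weeks. Trdv5 had at most 21.5 reads in a library and 0 in 3 of them, and Trdv1 had 0 reads in all 12. Trdv5 thus lies nearer to Trdj1 than Trdv4 does and had far fewer reads. The J partners of these V segments were hardly read: Trdj1 had at most 6.72 reads and Trdj2 at most 0.75.

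The last 60 coding bases of the V segments the results turn on are shown (GENCODE M21, GRCm38), with capitals on the letters for Tyr-X-Cys, the conserved end of a V region just before the join. The letters were searched as TATNNNTGT, TATNNNTGC, TACNNNTGT and TACNNNTGC on the coding strand of these 60 bases only; 134 of 139 V segments (96.4%) hold one of them, so the motif does not set the abundant segments apart.
Trdv4, chr14:54075456-54075515: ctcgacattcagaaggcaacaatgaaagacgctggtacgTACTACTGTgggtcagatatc
Trdv2-2, chr14:53961543-53961602: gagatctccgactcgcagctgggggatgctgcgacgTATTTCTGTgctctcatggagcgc
Trgv1, chr13:19340395-19340454: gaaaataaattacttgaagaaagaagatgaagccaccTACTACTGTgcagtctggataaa
Trgv2, chr13:19336573-19336632, minus strand: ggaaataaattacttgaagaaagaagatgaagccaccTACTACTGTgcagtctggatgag
Trgv5, chr13:19192666-19192725: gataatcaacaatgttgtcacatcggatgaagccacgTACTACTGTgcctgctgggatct
Trbv13-2, chr6:41121773-41121832: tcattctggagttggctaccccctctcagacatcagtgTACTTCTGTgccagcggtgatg

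The alpha locus, which holds 164 of the 223 segments, had the fewest reads. Trac, the single alpha constant segment, had 1.23, 2.11 and 2.06 CPM in knockout-labelled cells and 2.20, 1.46 and 1.07 CPM in WT cells at 20 weeks, and 2.94, 1.54 and 0.404 CPM in knockout-labelled cells and 4.01, 3.61 and 2.14 CPM in WT cells at 8 weeks. Its lowest library was knockout-labelled replicate 3 of 8 weeks, and its TPM were 1.20 to 12.4, against 1094 to 2374 for the beta constant segments. The 104 alpha V segments analysed, of 128 annotated, summed to 15.2 to 66.6 reads per library. The 59 J segments analysed, of 60 annotated, summed to 0 to 11.0 reads. Trav6-5, Trav6-7-dv9 and Trav7n-6 had the highest mean TPM of the V segments, and Trav7n-6 had 1.17 to 22.7 reads in a library, Trav6-7-dv9 0 to 15.2 reads and Trav6-5 0 to 11.4 reads. Of the J segments Traj58 had at most 4.63 reads and Traj49 at most 2.22. Alpha V segments come in repeated copies: 26 of the 223 segments have no 20-base word of their own, so single alpha V values are uncertain.

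At a minimum of 3 reads, 27 to 43 of the 223 segments were detected in a library, 25 in all 12 libraries and 66 in at least 1. The number was 36.3 ± 2.52 in knockout-labelled and 36.7 ± 6.03 in WT cells at 20 weeks, and 32.0 ± 4.36 in knockout-labelled and 36.3 ± 5.69 in WT cells at 8 weeks (SD, n = 3 each), and the groups overlapped. No segment was at 0 in all 3 libraries of 1 genotype and at 3 or more reads in all 3 of the other at the same time.

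The genes that work with the receptor were read from a list of 20: the CD3 and zeta chains that carry the receptor's signal, co-receptors, signalling kinases and adaptors, and the recombinase. Cd3g (CD3 gamma chain) averaged 33.1 ± 3.76 CPM in knockout-labelled and 44.9 ± 1.93 CPM in WT cells at 20 weeks, and 35.8 ± 10.44 CPM in knockout-labelled and 52.9 ± 14.1 CPM in WT cells at 8 weeks (SD, n = 3 each). Cd3e (CD3 epsilon chain) was far lower, with 0.201 ± 0.2 CPM in knockout-labelled and 2.47 ± 1.55 CPM in WT cells at 20 weeks, and 0.149 ± 0.144 CPM in knockout-labelled and 0.967 ± 0.95 CPM in WT cells at 8 weeks. Its log2 fold change averaged over both times was -3.14 (SE 0.88, adjusted p = 0.592 by edgeR). The kinase Lck had 97.3 to 314.7 CPM over the 12 libraries, the kinase Zap70 68.4 to 171.9 CPM and the adaptor Lat 101.2 to 282.7 CPM, so signalling genes were present where Cd3e was nearly absent. Of the 20 genes 18 were tested and 0 changed with genotype averaged over both times at an adjusted p under 0.05 by edgeR, against 0.221% of all genes. At an unadjusted p under 0.05 were 6 of the 18, against 3.72% of all genes: Cd3e, Cd3g, Cd247 (zeta chain), Lck and Trat1 (an adaptor) were lower, and the 1 that was higher was Rag1 itself, whose label is in doubt. Cd3e and Cd3g lie on chromosome 9, as does Thy1, the gene of CD90. For them Rag1 genotype and strain sequence linked to the CD90.1 marker cannot be told apart. The median log2 fold change of the list was -0.24. Dntt, which adds bases at the joins, had 0 reads in all 12 libraries, and Rag2 had 1.17 to 6.22 CPM.

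Genotype was compared with edgeR's quasi-likelihood test over 14447 genes, of which 29 were segments (8 V, 15 J and 6 constant segments). The other 194 did not pass the filter on low counts, so these counts do not describe all segments. Averaged over both times, 0 of 29 segments changed at a Benjamini-Hochberg adjusted p under 0.05, against 0.221% of all genes tested; 2 had an unadjusted p under 0.05, both lower, against 3.72% of all genes in either direction, and limma-voom also called 0 while DESeq2 called 1. The median log2 fold change of the 29 (knockout-labelled over WT) was -0.15, against 0.00 for all genes, and 21 of 29 were below 0. At 20 weeks 0 of 29 changed (0.0554% of all genes), 0 had an unadjusted p under 0.05 (2.08% of all genes), and DESeq2 and limma-voom also called 0. At 8 weeks 0 of 29 changed (0.221% of all genes), 2 had an unadjusted p under 0.05, both lower (3.61% of all genes), limma-voom called 0 and DESeq2 called 1. In bulk samples, fewer cells that carry an RNA and less of it per cell cannot be told apart.

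The constant segment Trgc2 had the lowest p of the 29 averaged over both times, at -1.18 on the log2 scale (SE 0.29, adjusted p = 0.329 by edgeR); it was lower in 3 of 3 knockout-labelled libraries than in every WT library at both times. DESeq2 called it (-1.19, adjusted p = 0.0282), and over all alternatives its adjusted p ran from 0.0282 to 0.85. For Trgc1 at 8 weeks the log2 ratio was -1.38 (SE 0.32, adjusted p = 0.243 by edgeR), with all 3 knockout-labelled libraries under all 3 WT ones; DESeq2 called it (adjusted p = 0.00695), and the alternatives ran from 0.00695 to 1. At 20 weeks Trgc1 differed by 0.03 (SE 0.31, adjusted p = 1). Trgc4, which shares few words with either, had -0.05 (SE 0.15) at 20 weeks and -0.26 (SE 0.15) at 8 weeks, both with an adjusted p of 1 by edgeR.

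The leading beta and delta segments had smaller standard errors than Trgc2. The log2 fold change averaged over both times was -0.14 (SE 0.17) for Trbc1, -0.29 (SE 0.17) for Trbc2, 0.06 (SE 0.19) for Trbj1-1, -0.31 (SE 0.22) for Trbj2-1 and 0.02 (SE 0.15) for Trdv4, each with an adjusted p of 1 by edgeR. Without the 2 libraries that stood apart the value of Trbc1 was 0.08, of Trbj1-1 -0.01 and of Trdv4 -0.02. A p that misses the threshold does not show that the genotypes are alike.

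Groups that did not overlap were counted as well. At 20 weeks 3 of 29 segments (Trbj1-5, Trdv2-2 and Trgc2) were lower in every knockout-labelled library than in every WT library, against 5.9% of all genes, and 0 of 29 were higher in every library, against 5.59%. At 8 weeks 5 of 29 (Trbj2-2, Trgc1, Trgc2, Trgc4 and Trgj4) were lower in this sense, against 2.82% of all genes, and 0 were higher, against 2.82%. Of these 5 at 8 weeks, 4 were gamma segments, which make up 9 of the 29 tested; the model can move reads between Trgc1 and Trgc2. Summed per locus, gamma constant segments had 278, 289 and 338 CPM in knockout-labelled cells and 286, 307 and 335 CPM in WT cells at 20 weeks, and 312, 357 and 328 CPM in knockout-labelled cells and 485, 723 and 459 CPM in WT cells at 8 weeks; the sums overlapped at 20 weeks and did not at 8 weeks.

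**Figure D3:**
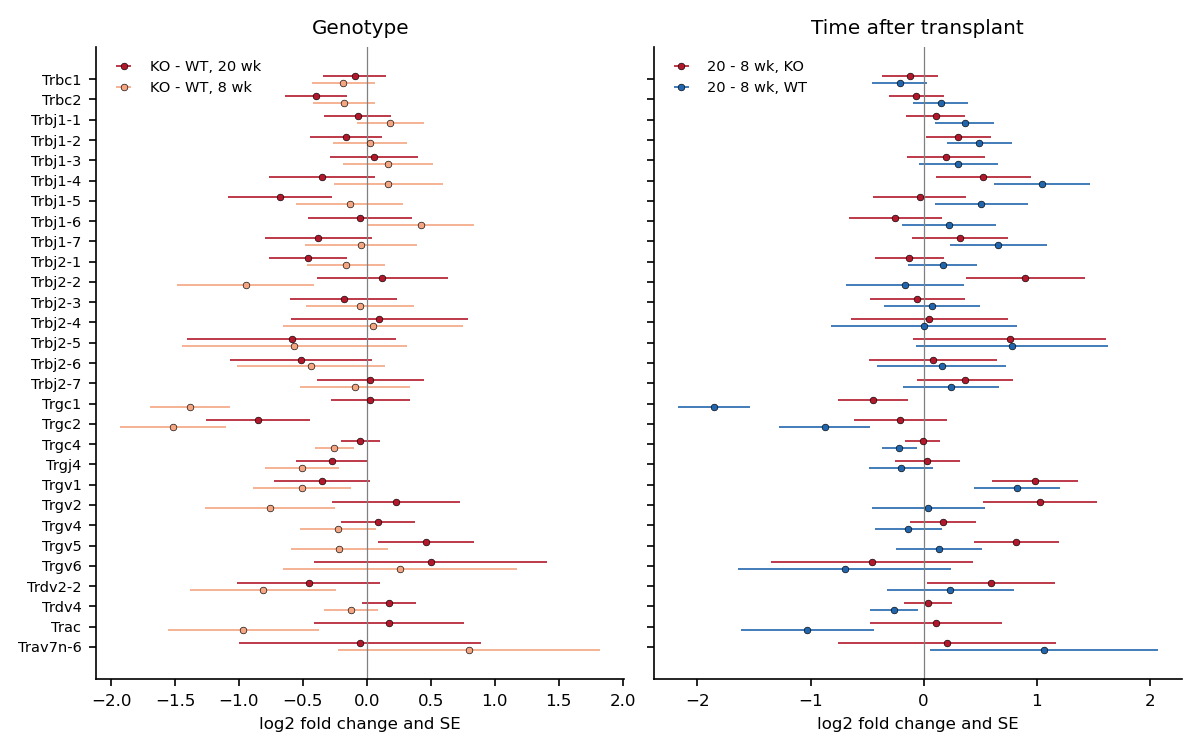
Log2 fold change and SE of the 29 segments tested, for genotype (knockout-labelled over WT, left) and for time (20 over 8 weeks, right). Trgc1 and Trgc2 lie farthest to the left at 8 weeks in the left panel, and Trgc1 in WT cells, at -1.86, is the only value called at an adjusted p under 0.05.

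Time after transplant was then compared within each genotype. In knockout-labelled cells 0 of 29 segments changed between 20 and 8 weeks (0.0623% of all genes), 1 had an unadjusted p under 0.05 and was higher (8.23% of all genes), and DESeq2 and limma-voom also called 0. In WT cells 1 of 29 changed (0.519% of all genes in either direction, 0.318% lower), and 2 had an unadjusted p under 0.05, 1 higher and 1 lower (13.4% of all genes). Trgc1 fell to 63.2, 89.7 and 83.9 CPM at 20 weeks, against 223, 452 and 183 CPM at 8 weeks, which is -1.86 on the log2 scale (SE 0.32, adjusted p = 0.0243 by edgeR). The 3 libraries of each time did not overlap. The call was lost without WT replicate 1, 2 or 3 of 20 weeks (adjusted p = 0.143, 0.101 and 0.114), and on the 6 libraries whose headers record 8 threads, 2 in each of 3 groups, it was -2.12 (adjusted p = 0.483). It was kept without both libraries that stood apart (-1.36, adjusted p = 0.0171), and with Trgc1, Trgc2 and Trgc3 summed (-1.83, adjusted p = 0.0223).

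A list of gamma delta T cell markers held 6 genes, of which 3 were tested in the same comparison. Of these 3, 1 passed (0.519% of all genes did) and all 3 had an unadjusted p under 0.05 (13.4% of all genes), Cd163l1 and Il17a lower and Maf higher. Cd163l1, a scavenger receptor, had 1.00, 3.96 and 4.80 CPM in WT cells at 20 weeks, against 28.1, 18.4 and 38.5 CPM in WT cells at 8 weeks (log2 fold change -3.14, SE 0.52, adjusted p = 0.0188 by edgeR), and 1.46 to 6.51 CPM in knockout-labelled cells. Of the other markers Sox13 was at 0 in 11 of 12 libraries and Blk in 10 of 12; in the WT libraries of 8 weeks Sox13 reached 0.501 CPM, Blk was at 0 and Il23r reached 0.262 CPM. Il17a, a cytokine, had 0.0323, 0.115 and 0 CPM in WT cells at 20 weeks, against 0.785, 0.201 and 1.41 CPM in WT cells at 8 weeks (log2 fold change -3.78, SE 1.11, adjusted p = 0.19 by edgeR). The summed level of the 6 was 283 to 310 CPM in knockout-labelled and 311 to 369 CPM in WT cells at 20 weeks, and 191 to 365 CPM in knockout-labelled and 229 to 295 CPM in WT cells at 8 weeks, nearly all of it Maf. The CD3 and zeta chains went both ways in WT cells. Cd3e had 2.94, 0.73 and 3.73 CPM at 20 weeks, against 1.00, 0 and 1.90 CPM at 8 weeks. Cd3d averaged 3.99 CPM at 20 weeks and 2.47 CPM at 8 weeks, Cd3g 44.9 and 52.9 CPM, and Cd247 11.0 and 15.5 CPM. Of the 11 T cell genes tested, 0 passed in this comparison, against 0.519% of all genes, and their median log2 fold change was -0.17. The part of gamma delta T cells in the Trgc1 result was not tested. Of the 4 V segments upstream of Trgc1, Trgv7 was not tested, and the log2 fold change over time in WT cells was -0.14 (SE 0.29) for Trgv4, -0.70 (SE 0.94) for Trgv6 and 0.14 (SE 0.38) for Trgv5, with adjusted p of 0.887, 0.803 and 0.916 by edgeR.

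**Figure D4:**
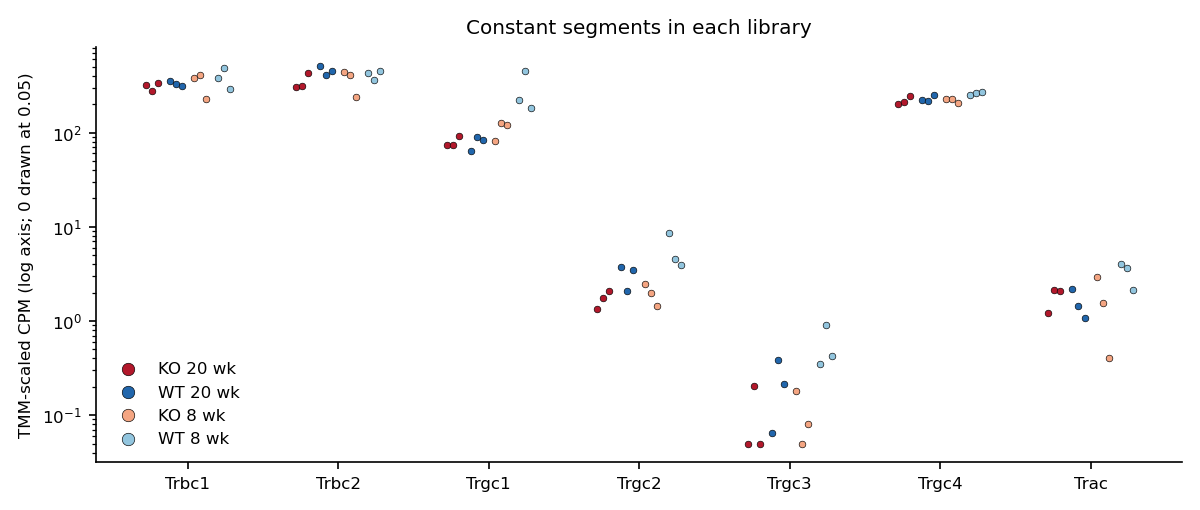
TMM-scaled CPM of the 7 constant segments in each of the 12 libraries, on a log axis, with the 4 groups side by side. The WT libraries of 8 weeks stand above the others for Trgc1 (183 to 452 CPM), while Trgc4 stays between 203 and 272 CPM in every library.

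Other segments had groups that did not overlap but did not pass the test. In knockout-labelled cells Trbj1-4, Trbj2-7, Trgv1, Trgv2 and Trgv5 were higher in every library of 20 weeks than in every library of 8 weeks, 5 of 29 against 8.49% of all genes, and 0 of 29 were lower in this sense, against 7.96%. In WT cells Trbj1-2, Trbj1-4, Trbj1-7 and Trbj2-5 were higher, 4 of 29 against 9.93% of all genes, and Trgc1, Trgc2 and Trgc4 were lower, 3 of 29 against 9.34%. The log2 ratio of Trgv1 was 0.98 (SE 0.38, adjusted p = 0.536 by edgeR) in knockout-labelled cells and 0.82 (SE 0.38, adjusted p = 0.374) in WT cells. The medians over the 29 were 0.11 in knockout-labelled cells, against 0.00 for all genes, and 0.15 in WT cells, against 0.02. The time and genotype comparisons share libraries and are not independent.

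Whether genotype acted differently at the 2 times was tested as an interaction. None of the 29 segments passed (0 of 29, against 0.09% of all genes), 1 was higher at an unadjusted p under 0.05 (2.21% of all genes in either direction), and DESeq2 and limma-voom also called 0. That 1 was Trgc1, with an interaction of 1.41 on the log2 scale (SE 0.44, adjusted p = 1 by edgeR), so a genotype difference limited to 8 weeks was not shown for it.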

How the data were processed

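RNA of 12 sorted samples was sequenced after removal of ribosomal RNA and random-hexamer priming, per the labels' protocols, although the labels also name polyA RNA; strand is not given in the sources used here. Per the file headers, the authors quantified each library with sailfish 0.6.3 against an Ensembl release 76 index of 20-base words, and deposited estimated counts and TPM per transcript; 6 files record 8 threads and 6 record 24. The submitters' processing notes name STAR 2.0.4b, featureCounts 1.4.5, Subread and bcl2fastq too. Sailfish divides the reads of words that transcripts share, so near copies are uncertain. Shared words were counted here in GENCODE M21 sequences, and 145 of 241 segment transcripts had the same length there as in the files. A germline segment can be counted, but reads across a join hold words that the index lacks. The labels give 20 weeks for the later time and the series text another length; the labels were used.

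Of 86127 transcripts 83827 (97.33%) had a gene in GENCODE M21 (GRCm38) and were added up per gene; the 2300 others, with 0.976% to 1.465% of the reads, were left out. Expected counts were rounded and tested with edgeR 4.0.16 (R 4.3.3; filterByExpr, TMM, quasi-likelihood test, 4 group means, Benjamini-Hochberg over 14447 genes, called under 0.05), with limma 3.58.1 and DESeq2 1.42.0 as alternatives; the code was tested on simulated data. Totals were 11433625 to 32529806 reads, and floors of 3 reads cover counting error only. The members, gene lists and tests were chosen with earlier results of these data known. Named were all constant segments, per locus the 3 V and 2 J segments of highest mean TPM, every called segment and the partner list; other segments named were chosen after their values were seen. Replicate numbers were not taken to pair the samples.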

Additional observations from a re-analysis of the deposited data

How the results depend on the processing

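Of 797 alternative values for 46 results, 767 were labelled the same as the main value. For fold changes of single segments (454 of 476) this means the same direction and side of the threshold. For counts of segments called (130 of 136) it means the same count. For descriptions without a test (183 of 185) it means less than 1 SD from the main value. Leaving out 1 library cannot move a mean of all 12 that far, and hardly a ratio of group means. Those labels, many of the 183, were thus fixed in advance and do not show that the descriptions are stable. The 2 that moved were the numbers of segments detected at 1 and at 10 reads. DESeq2's Wald test called 1 segment averaged over both times (Trgc2, -1.19, adjusted p = 0.0282) and 1 at 8 weeks (Trgc1, -1.39, adjusted p = 0.00695), where edgeR called 0; over all genes it called 76, 32, 75, 35, 150 and 467 for genotype averaged, at 20 weeks, at 8 weeks, the interaction, time in knockout-labelled cells and time in WT cells, against 32, 8, 32, 13, 9 and 75 by edgeR. For time in WT cells the count of segments called was 0 to 1 when 1 library was left out, with Trgc1 at -2.09 to -1.36, and 0 with the 8-thread libraries alone (Trgc1 -2.12), a setting chosen after seeing the data, as was the sum of near copies. Without both libraries that stood apart, 59 and 156 genes changed with time in knockout-labelled and WT cells. The cause of these shifts was not tested. The mean number of segments detected was 44.2 at 1 read and 27.0 at 10 reads. Small genotype differences changed sign: with thread number as covariate Trgv5 was -0.05 and Trdv4 -0.06; without both libraries that stood apart Trbc1 was 0.08, Trdv4 -0.02, Trav7n-6 -0.31 and Trbj1-1 -0.01. Leaving out 1 library gave 0 to 0.27 for Trgv5, -0.07 to 0.11 for Trdv4, -0.16 to 1.07 for Trav7n-6, -0.07 to 0.18 for Trbj1-1 and -0.12 to 0.12 for Trgc1 at 20 weeks. With the replicate number as a block, 0 segments were called in each genotype contrast, the interaction and time in knockout-labelled cells, and 1 for time in WT cells (Trgc1 -1.81, adjusted p = 0.0253); over all genes 19, 4, 17, 9, 5 and 49 were called. Deviations of same-numbered libraries correlated positively in 6 of 6 pairs (0.066 to 0.155 at 20 weeks, 0.078 to 0.312 at 8 weeks) and over 0.1 in 4, while 9 of 12 pairs with different numbers were negative. Deviations were taken from group means, so a positive pair pulls the pairs with different numbers below 0, and the 2 counts are not independent. The numbers were not taken as pairs, since not every pair was over 0.1, a cut that was a choice. Pairing by mouse was not settled, and the main p-values leave it out. Segments under 10 reads, which include nearly all alpha and beta V segments, are limited by depth.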
